A study of Mus musculus with 8 samples.

Results

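The IL-10, IL-12 and IL-6 families of cytokines were followed through 10 genes in mouse neutrophils, chosen by symbol from the 24421 genes of the count table. The set held 7 ligand or ligand subunit genes (Il10, Il12a, Il12b, Il23a, Il27, Il6 and Osm) and 3 receptor genes (Il10ra, Il10rb and Il6ra). RNA was sequenced from bone marrow neutrophils, isolated with magnetic beads from WT mice and from Padi4 KO mice that lack exon 1 of Padi4, all 8 weeks old and on the C57BL/6 background. Padi4 encodes PAD4, an enzyme that turns arginine in proteins into citrulline. The neutrophils were left unstimulated or were given R848, an agonist of the RNA sensor TLR7, at 1 µg/ml for 6 h, which made 4 groups of 2 libraries each. For the unstimulated libraries the titles give 0 h and the treatment protocol 6 h, so that R848 and time in culture cannot be told apart if the titles hold. The labels do not say whether the 2 libraries of a group came from separate mice, and the study's methods speak of duplicates. The 2 libraries of a group differed by 1.05 to 1.67 times the variance that counting alone gives (chi-square over degrees of freedom), and p-values measure only the spread between these libraries, which may be technical.

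IL-10 acts through a receptor made of the chains encoded by Il10ra, which binds the cytokine, and Il10rb, which is shared with other cytokines of the family, and its signal runs through JAK1, TYK2 and STAT3 to restrain inflammatory genes. IL-12 is a pair of the Il12a and Il12b products, IL-23 pairs the same Il12b product with that of Il23a, and IL-27 pairs the Il27 product with that of Ebi3. IL-6 and oncostatin M, encoded by Osm, both signal through the shared chain gp130, encoded by Il6st, and the Il6ra product is the chain that binds IL-6. Neutrophils are known both to release some of these cytokines after a Toll-like receptor is triggered and to carry and shed the IL-6 receptor.

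Il10, Il12a, Il12b, Il23a and Il6 had no count in any unstimulated library, and Il10, Il12a and Il12b had counts in all 4 R848 libraries. For 4 of the 10 genes the RefSeq tables of GRCm38.p6 gave a promoter, and the 250 bases before the start are shown for Il12a and Il12b, which encode both parts of IL-12 and appeared after R848 together, and for Il6, which stayed at or under 3 counts over each group. Capitals mark motifs searched on both strands, namely the NF-kB core GGANTTTCC, C/EBP TTGCNNAA, AP-1 TGANTCA, STAT TTCNNNGAA and IRF GAAANNGA, and no matches of different motifs overlapped in these windows. All 3 genes lie on the plus strand.
Il12a, first of 2 starts, chr3:68690394-68690643: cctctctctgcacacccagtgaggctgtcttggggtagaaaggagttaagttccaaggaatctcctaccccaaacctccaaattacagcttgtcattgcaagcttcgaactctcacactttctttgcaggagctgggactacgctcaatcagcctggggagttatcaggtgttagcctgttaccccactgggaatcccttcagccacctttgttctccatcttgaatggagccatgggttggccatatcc
Il12b, chr11:44399813-44400062: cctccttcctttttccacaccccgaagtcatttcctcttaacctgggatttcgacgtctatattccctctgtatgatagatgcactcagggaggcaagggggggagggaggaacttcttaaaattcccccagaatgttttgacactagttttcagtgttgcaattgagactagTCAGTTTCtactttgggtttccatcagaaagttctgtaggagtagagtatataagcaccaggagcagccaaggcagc
Il6, chr5:30012864-30013113: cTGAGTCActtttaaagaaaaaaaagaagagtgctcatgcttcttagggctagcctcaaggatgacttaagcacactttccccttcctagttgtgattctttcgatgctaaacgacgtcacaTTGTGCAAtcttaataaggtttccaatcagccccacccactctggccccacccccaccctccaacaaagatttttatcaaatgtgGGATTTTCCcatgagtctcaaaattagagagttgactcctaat
The Il6 window held an AP-1 match from -249 to -243, which reads the same on both strands by this pattern, a C/EBP match on the minus strand from -128 to -121 and an NF-kB core match from -43 to -35, counted from the start. The Il12b window held 1 IRF match on the minus strand from -77 to -70. The letters of these 5 motifs were not found in the windows of Il12a, at either start, or of Il6ra. Of the 32851 RefSeq promoter windows of the same length, 1.07% held the NF-kB core pattern, 9.56% C/EBP, 6.75% AP-1, 7.02% STAT and 18.1% IRF. No binding was measured in these libraries.

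The libraries held between 562446 and 1177972 counts on genes, and 3 counts in a library corresponded to between 2.55 and 5.33 CPM, a unit that divides counts by the depth of the library. Padi4 itself had 590 and 527 counts in the unstimulated WT libraries and 40 and 54 in the unstimulated Padi4 KO libraries, and 166 and 234 against 34 and 21 after R848. Its log2 fold change between genotypes was -4.45 ± 0.13 (SE, n = 2 per group) without stimulation and -3.92 ± 0.17 after R848. Neutrophil markers took between 100359 and 154567 CPM of the library totals in each library, and the B cell, T and NK cell and dendritic cell lists took at most 16.8 CPM in any library, with Ebf1, Cd3e, Cd8a and Klrb1c at 0 in all 8. Of the 10 neutrophil markers tested, 9 were lower in Padi4 KO without stimulation (median log2 fold change -0.60) and 8 after R848 (median -0.62), and their summed share of the library totals was also lower, at 121794 against 151487 CPM and at 100734 against 132045 CPM. Erythroid markers went the other way, with a summed mean of 28.5 CPM in WT and 232 CPM in Padi4 KO without stimulation, and of 4.77 and 251 CPM after R848, although the globin genes Hba-a1 and Hbb-bs were at 0. In bulk RNA, fewer cells of a type and less RNA per cell cannot be told apart.

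R848 raised 5 of the 9 tested genes of the set in WT and the same number in Padi4 KO, and in both genotypes these were Il10, Il12a, Il12b, Il10ra and Il10rb. A call needed over 2-fold change at a false discovery rate under 0.1, from the quasi-likelihood test of edgeR after Benjamini-Hochberg adjustment. Upward calls made up 7.17% of all genes tested in WT and 8.07% in Padi4 KO. Il10, Il12a, Il12b and Il6 had no counts without stimulation and were tested only through their R848 libraries. Their direction was thus fixed in advance, and the count is not to be read against these shares. Il10ra and Il10rb were the raised genes with counts in all 4 groups. A fall was possible only for the genes with counts without stimulation, Il27, Osm, Il10ra, Il10rb and Il6ra. None of these fell in WT, where 0 did so at an unadjusted p below 0.05 and 0 with DESeq2. In Padi4 KO 1 of them, Osm, fell. Downward calls made up 10.8% of all genes tested in WT and 8.84% in Padi4 KO. The plot of CPM by library shows the genes side by side.

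**Figure D1:**
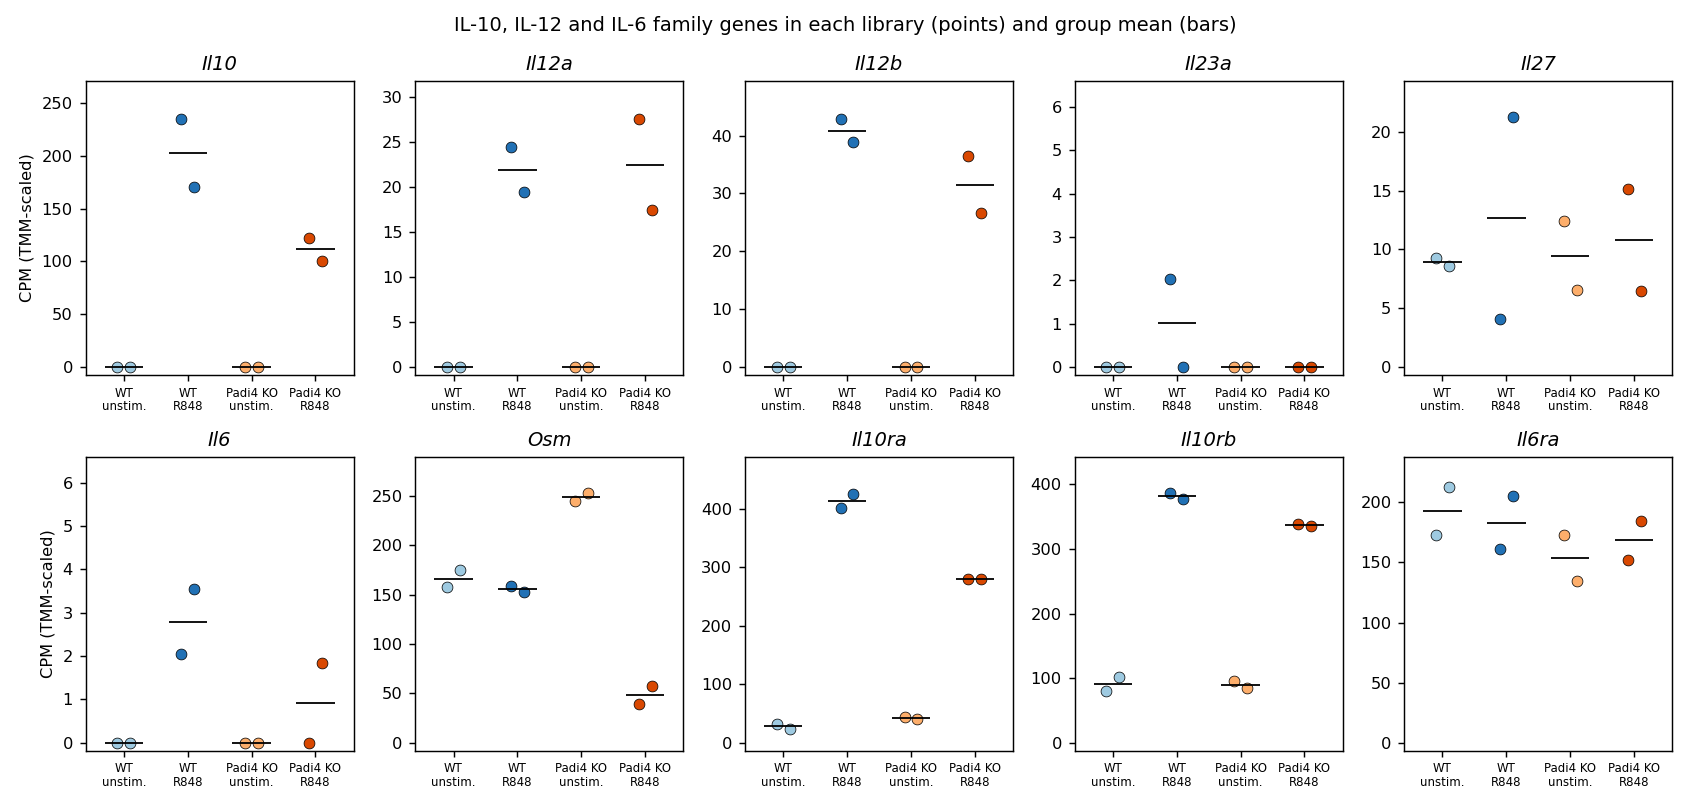
Each panel shows 1 gene, with TMM-scaled CPM on the vertical axis and the 4 groups on the horizontal axis; points are libraries and bars are means of 2 libraries. Il10, Il12a and Il12b sit at 0 without stimulation, Il23a and Il6 stay at 3.54 CPM or below in every library, and Osm is lowest in the 2 Padi4 KO libraries given R848.

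Il10, the gene of the anti-inflammatory cytokine at chr1:131019845-131024974, had 0 counts in all 4 unstimulated libraries. R848 libraries held 115 and 96 counts of it in WT, and 138 and 109 in the deeper libraries of Padi4 KO. Scaled for depth these were 234 and 170 CPM in WT and 123 and 100.2 CPM in Padi4 KO, so that both Padi4 KO libraries lay below both WT libraries. Set against a floor of 3 counts over the unstimulated group, Il10 was at least 81.7-fold higher after R848 in WT and at least 84.2-fold higher in Padi4 KO. With both unstimulated groups at 0 the difference of the responses has no value, and the genotypes were compared after R848. There Il10 averaged 202 ± 45.5 CPM in WT and 111 ± 15.9 CPM in Padi4 KO (SD, n = 2 each), a log2 fold change of -0.84 ± 0.15 (SE; edgeR adjusted p = 4.47e-07), or 1.79-fold lower in Padi4 KO. Across 7 other settings of the fit the log2 fold change ran from -0.95 to -0.63, and Padi4 KO remained lower with a call in each.

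Il12a and Il12b, which encode the p35 and p40 chains of IL-12, also appeared with R848. Il12a, at chr3:68690644-68698547, was at 12 and 11 counts in the WT libraries given R848, at 31 and 19 in those of Padi4 KO, and at 0 in every unstimulated library. Its rise was at least 8.91-fold in WT and at least 17.0-fold in Padi4 KO over the same floor, and these bounds differ with the depth of the unstimulated libraries. In CPM the 2 genotypes overlapped after R848, at 24.5 and 19.5 in WT and 27.5 and 17.5 in Padi4 KO. The log2 fold change of Il12a between genotypes was 0.05 (95% interval -0.70 to 0.80; edgeR adjusted p = 0.992).

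Il12b, at chr11:44400063-44414033, was at 21 and 22 counts in the WT libraries given R848 and at 41 and 29 in those of Padi4 KO. Its rise was at least 16.6-fold in WT and at least 23.8-fold in Padi4 KO. The Padi4 KO libraries, at 36.4 and 26.7 CPM, lay below the WT libraries, at 42.8 and 39.0 CPM. The difference did not pass the test, with a log2 fold change of -0.36 (95% interval -0.95 to 0.22; edgeR adjusted p = 0.514).

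The partner genes of the related cytokines behaved otherwise. Il23a, the p19 chain of IL-23, had 1 count in all, in WT replicate 1 after R848, and was too low to be tested. Il27, the p28 chain of IL-27, was present in every library at between 2 and 17 counts. Its values were 9.28 and 8.63 CPM in unstimulated WT, 4.08 and 21.2 CPM in WT after R848, 12.4 and 6.53 CPM in unstimulated Padi4 KO and 15.1 and 6.43 CPM in Padi4 KO after R848. All 4 groups overlapped, and the libraries lay close together in unstimulated WT alone. The R848 response of Il27 was 0.56 on the log2 scale in WT (95% interval -0.62 to 1.73; edgeR adjusted p = 0.558) and 0.29 in Padi4 KO (95% interval -0.60 to 1.18; edgeR adjusted p = 0.692). Without replicate 2 of the WT libraries given R848 the WT response was -1.01. Exons of Il27 at chr7:126589010-126594941 share bases with Apobr on the opposite strand, and the strand setting of the counting is not given in the sources used here, so its few counts are uncertain.

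Ebi3, the partner of the Il27 product, is not of the set and was read for the same heterodimer. It had 34 and 26 counts in unstimulated WT, 109 and 138 in WT after R848, 23 and 41 in unstimulated Padi4 KO and 246 and 270 in Padi4 KO after R848. It rose in both genotypes, by 2.25 ± 0.19 in WT and 3.04 ± 0.16 in Padi4 KO on the log2 scale (SE; edgeR adjusted p = 6.58e-30 and 1.18e-73). The difference of these responses, 0.78 ± 0.29, did not pass the test (SE; edgeR adjusted p = 0.134). Without stimulation Ebi3 was lower in Padi4 KO, by a log2 fold change of -0.79 ± 0.26 (SE; edgeR adjusted p = 0.0191). After R848 the genotypes differed by -0.0043 (95% interval -0.25 to 0.24). Per kilobase of exon, a scale on which genes can be compared, Ebi3 reached 202 CPM per kb in both genotypes after R848, against 12.4 for Il27 in WT and 10.5 in Padi4 KO. Exons of Ebi3 also overlap a gene on the opposite strand.

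**Figure D2:**
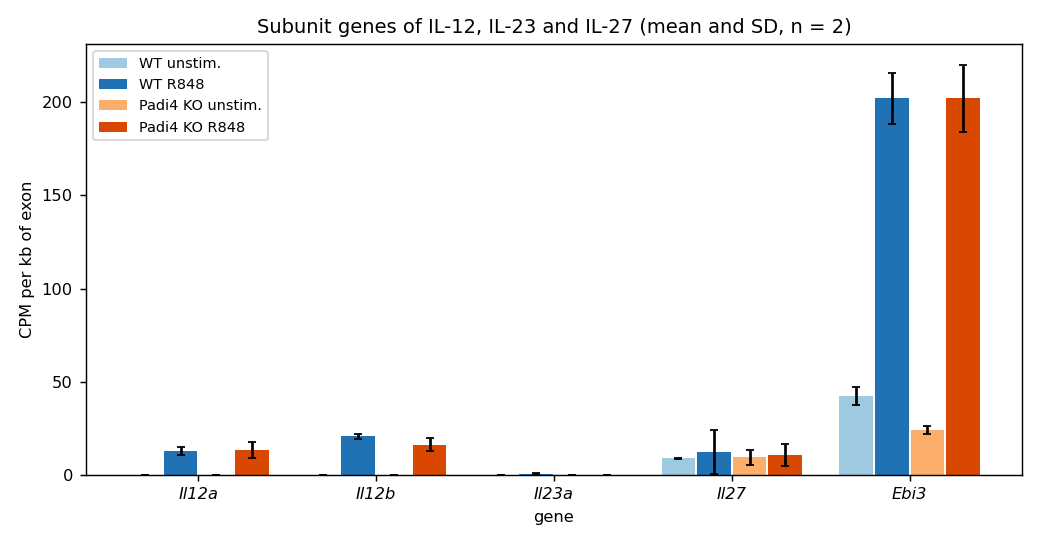
Bars give mean CPM per kilobase of exon with the SD of 2 libraries for the subunit genes of IL-12, IL-23 and IL-27, with the 4 groups in colours. After R848 Ebi3 stands at 202 in both genotypes, while Il12a, Il12b and Il27 stay between 10.5 and 20.8 and Il23a is at or near 0.

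Il6, the gene of the inflammatory cytokine IL-6 at chr5:30013114-30019981, stayed at the limit of detection. It had 0 counts in all unstimulated libraries, 1 and 2 counts in WT after R848, and 0 and 2 counts in Padi4 KO after R848. The 3 counts over the WT group and the 2 over the Padi4 KO group are at or below the floor, so no fold change is given and no difference was detectable at this depth. Il6 and Il23a were the genes of the set with fewer than 3 counts in every library, and none of the 10 was silent in all 8.

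Osm, the gene of oncostatin M at chr11:4236420-4241026, was the ligand with most reads before stimulation. It had 102 and 101 counts in unstimulated WT, 78 and 86 in WT after R848, 216 and 348 in unstimulated Padi4 KO and 44 and 63 in Padi4 KO after R848. In CPM this was 158 and 174, 159 and 152, 244 and 253, and 39.1 and 57.9 in the same order. The unstimulated Padi4 KO libraries were above all others and the stimulated ones below all others, and the 2 WT groups overlapped. Osm fell by 2.36 ± 0.15 on the log2 scale after R848 in Padi4 KO (SE; edgeR adjusted p = 1.52e-57), or 5.14-fold. In WT the response was -0.09 ± 0.16 (95% interval -0.41 to 0.22; edgeR adjusted p = 0.749). The difference of the responses, Padi4 KO minus WT, was -2.27 ± 0.23 (SE; edgeR adjusted p = 1.43e-20), and stayed between -2.80 and -2.20 when each library was left out in turn.

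Osm thus went in opposite directions between the genotypes before and after R848. Without stimulation it was higher in Padi4 KO, at 248 ± 5.88 against 166 ± 11.8 CPM (SD, n = 2 each), a log2 fold change of 0.59 ± 0.13 (SE; edgeR adjusted p = 9.29e-05). After R848 it was lower, at 48.5 ± 13.3 against 156 ± 4.74 CPM, a log2 fold change of -1.68 ± 0.18 (SE; edgeR adjusted p = 1.13e-17). Summed markers of other cell types were read beside these values. The summed stromal and endothelial markers, which were detected for all 6 genes of the list and were mostly Col1a1 and Col1a2, ranged from 201 to 228 CPM in unstimulated WT and from 523 to 661 CPM in unstimulated Padi4 KO, and fell to between 32.9 and 47.6 CPM after R848 in both genotypes. The 10 monocyte and macrophage markers, given in full further on, were also higher in sum in unstimulated Padi4 KO, at a mean of 1935 against 1079 CPM, with 5 called higher. Their sum rose with R848 in both genotypes, to a mean of 6155 CPM in WT and 5923 CPM in Padi4 KO. The part of either list in the Osm values was not tested.

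Of the 3 receptor genes of the set, both of IL-10 rose and that of IL-6 did not pass the test in either response. Il10ra, the binding chain at chr9:45253837-45269149, had 21 and 14 counts in unstimulated WT, 197 and 240 in WT after R848, 39 and 57 in unstimulated Padi4 KO and 316 and 305 in Padi4 KO after R848. In CPM the stimulated libraries, at 401 and 425 in WT and 281 and 280.3 in Padi4 KO, all lay far above the unstimulated ones, at 32.5 and 24.2 in WT and 44.1 and 41.4 in Padi4 KO. Il10ra rose by 3.85 ± 0.19 in WT and by 2.72 ± 0.15 in Padi4 KO on the log2 scale (SE; edgeR adjusted p = 3.42e-88 and 4.76e-76), or 14.4-fold and 6.59-fold.

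The rise of Il10ra was smaller in Padi4 KO, with a difference of the responses of -1.13 ± 0.29 (SE; edgeR adjusted p = 0.00795). Without replicate 2 of the unstimulated WT group the call was lost, and the difference was -0.95 with an edgeR adjusted p of 0.147. After R848 Il10ra was lower in Padi4 KO, at 281 ± 0.307 against 413 ± 16.6 CPM (SD, n = 2 each), a log2 fold change of -0.56 ± 0.11 (SE; edgeR adjusted p = 7.10e-06). Without stimulation both Padi4 KO libraries were above both WT libraries, but the log2 fold change of 0.57 (95% interval 0.03 to 1.11) did not pass the test, with an edgeR adjusted p of 0.145, though it did with library size alone as the scaling (0.86) and in each fit without 1 of the 4 R848 libraries (0.70 to 0.72).

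Il10rb, the shared chain at chr16:91406164-91425834, had 52 and 59 counts in unstimulated WT, 190 and 213 in WT after R848, 84 and 117 in unstimulated Padi4 KO and 382 and 366 in Padi4 KO after R848. Its mean rose from 91.1 ± 15.2 to 382 ± 7.15 CPM in WT and from 89.9 ± 7.12 to 338 ± 2.13 CPM in Padi4 KO (SD, n = 2 each). The log2 fold changes were 2.07 ± 0.15 and 1.92 ± 0.12 (SE; edgeR adjusted p = 3.94e-41 and 5.06e-55), and the stimulated and unstimulated libraries did not overlap. The difference of the responses was -0.15 (95% interval -0.56 to 0.25; edgeR adjusted p = 0.845). After R848 the Padi4 KO libraries were below the WT libraries, with a log2 fold change of -0.18 (95% interval -0.39 to 0.03; edgeR adjusted p = 0.328). Its exons share bases with Gm21970 on the same strand, so some reads may have been left uncounted.

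Il6ra, the IL-6 binding chain at chr3:89864059-89913196, did not pass the test in either R848 response. It had 112 and 123 counts in unstimulated WT, 79 and 116 in WT after R848, 153 and 185 in unstimulated Padi4 KO and 171 and 201 in Padi4 KO after R848. The group means lay between 154 and 193 CPM with SDs between 23.2 and 31.4 CPM. Libraries overlapped between every pair of groups except the 2 unstimulated ones, whose nearest libraries both stood at 173 CPM. The R848 response was -0.06 in WT (95% interval -0.35 to 0.24; edgeR adjusted p = 0.858) and 0.16 in Padi4 KO (95% interval -0.08 to 0.40; edgeR adjusted p = 0.356). Unstimulated Padi4 KO was lower by a log2 fold change of -0.35 ± 0.14 (SE; edgeR adjusted p = 0.0509), a call that was lost in 4 of 7 other settings of the fit and in 6 of the 8 fits without 1 library, where it ran from -0.22 to -0.14. It was kept without replicate 1 of unstimulated WT and without replicate 1 of unstimulated Padi4 KO. Il6ra shares exon bases with Gm42809 on the opposite strand.

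**Figure D3:**
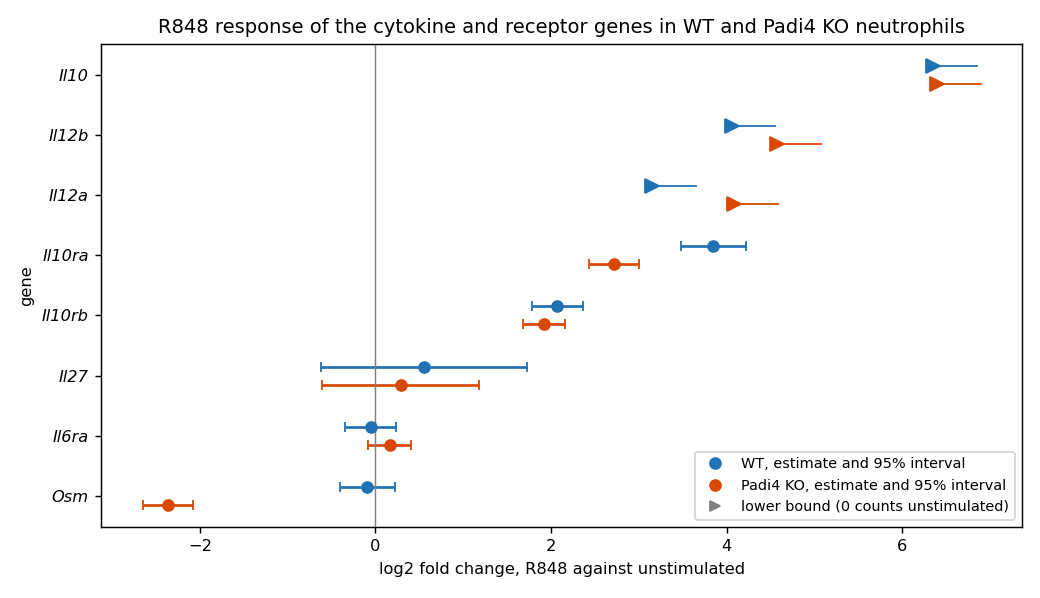
Log2 fold changes from unstimulated to R848 in WT and Padi4 KO, with 95% intervals of the edgeR fit; triangles are lower bounds where the unstimulated group had 0 counts. Il10ra and Il10rb lie right of 0 in both genotypes, Osm lies at -2.36 in Padi4 KO and near 0 in WT, and the intervals of Il27 and Il6ra cross 0.

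The difference of the responses had a value for 5 genes of the set, Il27, Osm, Il10ra, Il10rb and Il6ra, since the other tested genes had no counts without stimulation. Padi4 KO minus WT, it was called below 0 for 2 of these 5, for Osm with its fall in Padi4 KO alone passing the test and for Il10ra with a smaller rise. It was called above 0 for 0 of the 5, with 0 at an unadjusted p below 0.05 and 0 with DESeq2. Of all genes tested, the difference was called below 0 for 1.26% and above 0 for 3.45%, a balance of 154 against 423 that turned to 233 against 160 with relative log expression factors and to 90 against 35 with DESeq2. Without stimulation only the same 5 genes could be compared, of which 1 was higher (Osm) and 1 lower (Il6ra), against 9.55% and 14.4% of all genes. After R848 3 genes of the set were lower (Il10, Osm and Il10ra) and none higher, with 0 at an unadjusted p below 0.05 and 0 with DESeq2. Of all genes tested, 7.81% were lower and 9.46% higher there. The comparisons share libraries and are not independent of each other. The neutrophil markers of the same libraries had a median log2 fold change of -0.62 after R848, beside -0.84 for Il10, -1.68 for Osm and -0.56 for Il10ra. Their part in these values was not tested.

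**Figure D4:**
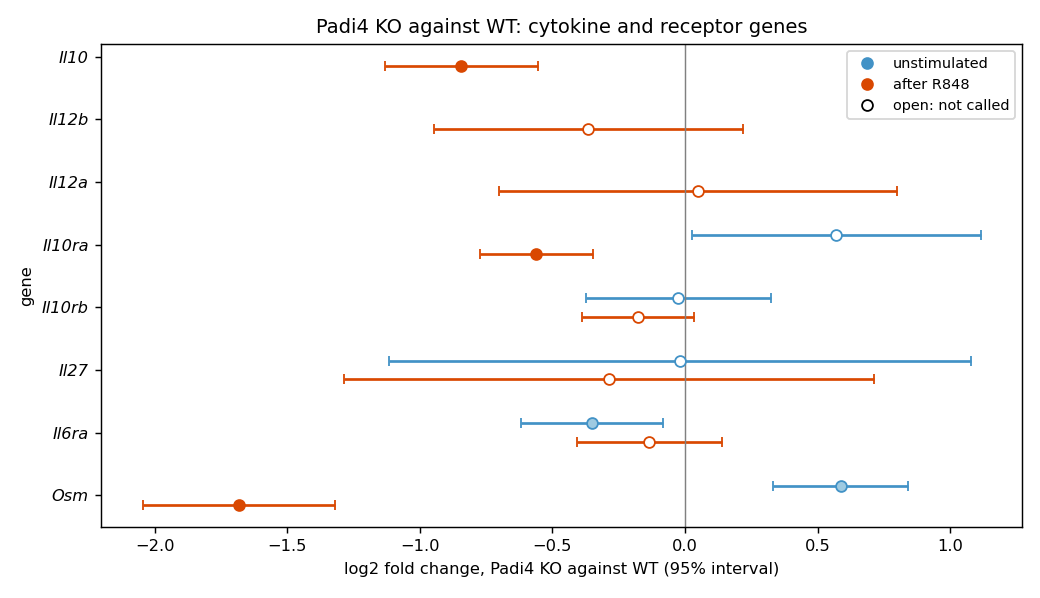
Log2 fold changes of Padi4 KO against WT with 95% intervals, without stimulation and after R848; filled points passed a false discovery rate of 0.1. Il10, Il12a and Il12b, without counts in the unstimulated groups, have 1 point, and Il6 and Il23a are not drawn. Osm is at 0.59 without stimulation and -1.68 after R848, and Il10 and Il10ra are left of 0 after R848.

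Compared per kilobase of exon, the order of the genes changed with R848. In unstimulated WT, Osm led at 73.1 ± 5.19 CPM per kb (SD, n = 2), followed by Il10rb at 23.9 ± 3.99 and Il6ra at 22.3 ± 3.21, whose libraries overlapped, and by Il27 at 8.77 ± 0.446 and Il10ra at 8.10 ± 1.68, which overlapped too. After R848 in WT, Il10 led at 154 ± 34.8, ahead of Il10ra at 118 ± 4.74, Il10rb at 100.4 ± 1.88 and Osm at 68.5 ± 2.09, with no overlap between these neighbours. Il6ra at 21.2 ± 3.63 overlapped Il12b at 20.8 ± 1.38, and Il12a at 12.9 ± 2.07 overlapped Il27 at 12.4 ± 11.9. Ligand and receptor genes of IL-10 thus held the highest 3 levels of the set.

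In unstimulated Padi4 KO, Osm again led at 109 ± 2.59 CPM per kb, with Il10rb at 23.6 ± 1.87, Il6ra at 17.8 ± 3.17, Il10ra at 12.2 ± 0.552 and Il27 at 9.29 ± 4.09. Here only the libraries of Il10ra and Il27 overlapped among neighbours. After R848 in Padi4 KO, Il10rb at 88.7 ± 0.559, Il10 at 85.0 ± 12.1 and Il10ra at 80.2 ± 0.0877 came first, and Il10 overlapped both receptor genes. Osm at 21.3 ± 5.85 had dropped into the group of Il6ra at 19.5 ± 2.68, Il12b at 16.0 ± 3.51, Il12a at 13.2 ± 4.19 and Il27 at 10.5 ± 6.00, in which each neighbour overlapped the next.

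The genes whose log2 CPM followed the members most closely over the 8 libraries, among 6911 others with at least 10 counts on average, are given as a description, since all points share the split between stimulated and unstimulated libraries. Il10 ran closest to Vmp1 (Pearson r = 0.9995), Ralgds (0.9993) and Il12b (0.9988). Il12b ran closest to Il10 (0.9988), Adgre1 (0.9987) and Sqstm1 (0.9984), with 4 of the 8 points of Il10 and Il12b at 0 counts. Osm ran closest to Zfp36 (r = 0.952), Dgat1 (0.939) and Fos (0.933). Il10ra ran closest to Smox, Lamp1 and Srxn1 (r = 0.998 each), and Il10rb to Plagl2, Adora2a and Map3k8, with r between 0.997 and 0.998. Il6ra ran closest to Dhx58 (0.965), Strn3 (0.922) and Hist1h2bc (0.912). Between genes of the set, Il10 and Il10ra had an r of 0.989 and Osm and Il10rb an r of -0.64.

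Adgre1, the F4/80 antigen, itself rose from 26 and 22 to 1240 and 1332 counts in WT and from 35 and 47 to 2091 and 1892 in Padi4 KO. Over all 10 markers of the monocyte and macrophage list, each detected, the summed level ranged from 1052 to 1106 CPM in unstimulated WT, 6112 to 6199 CPM in WT after R848, 1910.4 to 1960 CPM in unstimulated Padi4 KO and 5823 to 6023 CPM in Padi4 KO after R848. Adgre1, Mpeg1, Csf1r and Cx3cr1 rose in both genotypes, while Ccr2 and F13a1 fell in both and Ly86 in Padi4 KO. Between genotypes after R848, 4 of the 10 were higher and 2 lower in Padi4 KO. The cells had been isolated magnetically as neutrophils. The part of these markers in the rise of Il10, Il12a, Il12b, Il10ra and Il10rb was not tested.

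Most other genes of these families had few counts or none. Of 12 other ligand genes, 4 could be tested and Ebi3 alone passed in either response. Il19, Il20, Il22, Il24, Il11, Ctf1 and Il31 had no count in any library, and Lif, Clcf1 and Cntf had at most 2. Of 14 other receptor genes, 7 could be tested, and Lifr alone passed, falling from between 2 and 4 counts in each unstimulated library to 0 in each stimulated one, a call that was lost in WT with DESeq2. Il6st, the gp130 gene, had between 4 and 35 counts and its R848 response was -0.20 in WT (95% interval -1.29 to 0.90) and -0.66 in Padi4 KO (95% interval -1.31 to -0.01; edgeR adjusted p = 0.127). Osmr, Il23r and Il27ra, which encode receptor chains of oncostatin M, IL-23 and IL-27, had no count in any library, and Il12rb1 had at most 1.

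Genes of the shared signalling route were read as lists, with the counts beside the medians of all genes tested, which were -0.17 in WT, -0.03 in Padi4 KO and 0.19 for the difference, and beside the shares of all genes called, 7.17% and 8.07% for a rise in WT and Padi4 KO, and 1.26% and 3.45% for a difference below and above 0. Of 10 JAK-STAT genes, 4 rose in each genotype, Tyk2, Socs3, Jak2 and Ptpn11, with medians of 0.67 and 0.65. Tyk2, a kinase bound to the IL-10 and IL-12 receptors, rose by 2.62 ± 0.15 in WT and 2.12 ± 0.12 in Padi4 KO (SE; edgeR adjusted p = 3.42e-65 and 4.93e-70). Socs3, which shuts off signalling through gp130, rose by 2.25 ± 0.20 and 1.30 ± 0.13, and its difference of response was -0.95 ± 0.25 (edgeR adjusted p = 0.0091). It was already higher in Padi4 KO without stimulation, by 1.17 ± 0.21 (edgeR adjusted p = 6.65e-07), and after R848 the genotypes differed by 0.22 (95% interval -0.03 to 0.47; edgeR adjusted p = 0.309). Stat4, which carries the IL-12 signal, was lower in Padi4 KO without stimulation (-1.21 ± 0.24) and after R848 (-1.39 ± 0.28).

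Of 10 genes known to be induced by STAT3 or IL-10, 6 rose in WT and 5 in Padi4 KO, with medians of 1.20 and 0.91. Il1rn, which encodes the antagonist of the IL-1 receptor, rose by 2.85 ± 0.10 in WT and by 3.12 ± 0.10 in Padi4 KO (SE). It was lower in Padi4 KO both without stimulation, by a log2 fold change of -0.77 ± 0.13, and after R848, by -0.50 ± 0.08 (SE; edgeR adjusted p = 6.95e-08 and 3.92e-09). The difference of the responses was lower for Bcl3, Il4ra, Zfp36, Pim1 and Junb and higher for Ddit4, with a median of -0.55. Of the lower ones, Bcl3, Il4ra, Pim1 and Junb were higher in Padi4 KO without stimulation (0.87, 0.55, 0.61 and 0.50), and after R848 Zfp36, Pim1 and Junb were lower there (-0.49, -0.25 and -0.52). Junb, an AP-1 subunit, differed most of the lower ones by p, at -1.02 ± 0.14 (edgeR adjusted p = 1.28e-10). Ddit4 was named after its values were seen, and its difference was 1.74 ± 0.57 from at most 51 counts in a library (edgeR adjusted p = 0.0625).

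Of 15 regulators of the cytokine genes, 11 rose and 1 fell in WT, and 10 rose and 1 fell in Padi4 KO, with medians of 1.77 and 1.48. Zc3h12a, which encodes an RNase that degrades Il6 and Il12b transcripts, rose by 3.62 ± 0.21 in WT and 4.06 ± 0.17 in Padi4 KO (SE). Nfkbiz, a cofactor of NF-kB at the Il6 and Il12b genes, rose by 3.49 ± 0.15 and 2.58 ± 0.12. Cebpb rose by 1.75 ± 0.09 in WT, and in Padi4 KO by 0.97 ± 0.08, short of the 2-fold cut (edgeR adjusted p = 7.49e-31). Nfkbiz and Cebpb were the 2 regulators whose difference of response passed the test, both below 0 (-0.90 ± 0.23 and -0.77 ± 0.13, edgeR adjusted p = 0.00611 and 3.57e-07). Irf8 fell in both, from between 11 and 73 counts to between 6 and 17. In WT the calls of Irf8 and Lifr were both lost with DESeq2, without replicate 1 of unstimulated WT and without replicate 2 of WT given R848. In Padi4 KO the related genes called lower numbered 1 with DESeq2, against 2 before. Of the 3 genes of receptor shedding, Adam17, whose protease cuts the IL-6 receptor from the cell surface, rose by 2.61 ± 0.16 in WT and 2.38 ± 0.13 in Padi4 KO, and Rhbdf2 also rose in both.

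**Figure D5:**
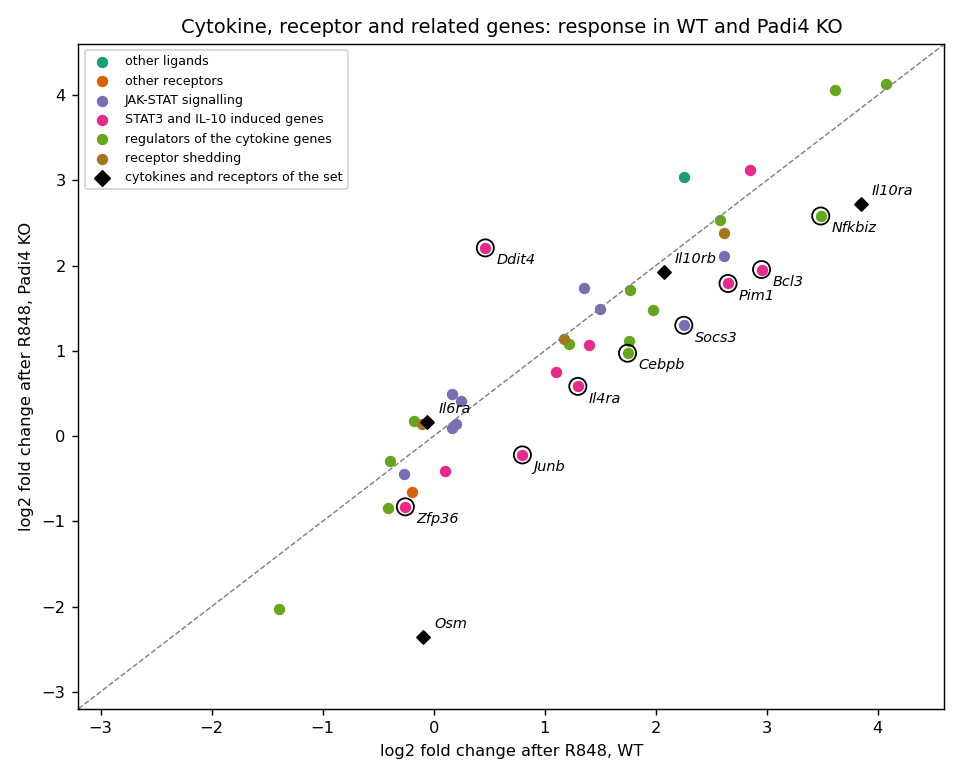
Log2 fold changes after R848 in WT on the horizontal axis and in Padi4 KO on the vertical axis, for genes of the related lists with at least 10 counts on average (circles, coloured by list) and for 4 genes of the set (diamonds); the dashed line marks equal responses and rings mark related genes with a called difference. Osm lies far below the line at -0.09 and -2.36, and Ddit4 is the ringed gene above it.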

How the data were processed

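RNA of 8 neutrophil samples was sequenced with paired reads. Per the submitters' processing notes and the study's methods, the authors checked reads with FastQC 0.11.7, trimmed them with cutadapt 1.16, mapped them to mm10 with STAR 2.5.3a and counted them on genes with HTSeq 0.6.1p1, and what they deposited are unscaled counts per gene symbol; the annotation and strand setting are not given in the sources used here. HTSeq's summary lines were left out of the tests, and between 87.0% and 89.5% of each library fell on genes.

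Groups and replicate numbers were taken from the labels. Genes with at least 1 count in at least 2 of 8 libraries (12254 of 24421) were fitted with edgeR 4.0.16 (limma 3.58.1, R 4.3.3), using TMM factors, 1 mean per group and the robust quasi-likelihood fit, and p-values were adjusted over all genes tested by the Benjamini-Hochberg method. A call of an R848 response needed over 2-fold change and a false discovery rate under 0.1, as in the study's methods, and calls in other contrasts the latter alone. An exact permutation test of 2 libraries against 2 cannot go below p = 0.333, so all p-values draw on the spread pooled over genes. CPM uses the TMM-scaled totals, except for the floor of each library and the marker sums, which use library totals, while floors over a group use the TMM-scaled totals; floors of 3 counts cover counting error only. DESeq2 1.42.0 and other settings were run as alternatives. Fits were tested on simulated data. Positions and exon lengths came from GENCODE on GRCm38 and promoters from RefSeq.

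The genes and lists were chosen with earlier results of these data known. Named were the 10 genes, Padi4, for each comparison up to 8 called genes of the related lists with the smallest p and at least 10 counts on average, and the 3 genes closest to each gene of the set by Pearson r of log2 CPM (prior count 2). Il6st, Lifr, Ddit4, Rhbdf2, Irf8, marker genes, silent genes and other genes of small counts were named after their values were seen. A few listed genes are not reported here.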

Additional observations from a re-analysis of the deposited data

Results flagged for a closer look

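The R848 responses of 2 genes differed between the genotypes by a test of the difference itself. For Osm the difference, Padi4 KO minus WT, was -2.27 on the log2 scale. For Il10ra it was -1.13, with both genotypes rising, and this call was lost without replicate 2 of unstimulated WT.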

How the results depend on the processing

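Il10, Osm and Il10ra kept their direction and calls after R848, and the responses of Il10, Il12a, Il12b, Il10ra and Il10rb in both genotypes kept theirs, under all alternatives run. The difference of response of Osm did so too; that of Il10ra lost its call without WT_Nostim replicate 2. The lower unstimulated Il6ra in Padi4 KO was lost, leaving 0 lower genes of the set, with DESeq2, relative log expression factors, library size alone, thinning to the smallest library and a false discovery rate of 0.05, and leaving out single libraries gave between 0 and 1. The count of higher genes there was 2 with library size alone and with edgeR's filterByExpr, and between 1 and 2 when single libraries were left out, the added gene being Il10ra. The lower genes of the difference numbered between 1 and 2 in the same way. After R848, the lower Il10rb of Padi4 KO passed (-0.28) when relative log expression factors were used, and Il6ra without WT_R848 replicate 1 (-0.43). The cause of these shifts was not tested.

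Over all genes, library size alone moved the median log2 fold change of genes with at least 10 counts from -0.07 to -0.38 in WT, from 0.08 to -0.30 in Padi4 KO, from -0.16 to 0.12 between unstimulated groups and from -0.00194 to 0.21 after R848, and relative log expression factors moved that of the difference from 0.18 to 0.02. In WT, 879 higher and 1328 lower calls became 811 and 719 with DESeq2 and 630 and 2106 with library size alone. In Padi4 KO, 989 and 1083 became 690 and 599, and 624 and 2072. Higher calls of the difference, 423 before, were 35 with DESeq2, 160 with relative log expression factors, 255 with library size alone and 271 after thinning, and lower calls, 154 before, were 90 and 233 with the first 2 of these. Without single libraries they ran from 51 to 293 and from 98 to 350. Between unstimulated groups, with 1170 higher and 1763 lower before, DESeq2 gave 475 higher and 586 lower, library size alone 1901 and 561, and single libraries left out 778 to 1600 and 1116 to 1412. After R848, with 1159 and 957 before, relative log expression factors gave 990 and 1359, DESeq2 387 and 621, library size alone 1870 and 417, and leave-one-out fits 648 to 1180 higher.

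Some values that passed no test turned sign. In WT the Il6ra response was 0.0066 with DESeq2 and 0.016 with relative log expression factors. With library size alone the Padi4 KO responses of Il27 and Il6ra were -0.085 and -0.22, and after R848 the genotype difference of Il10rb was 0.038 and of Il6ra 0.080. Thinning gave 0.046 for the Il10rb difference of response. Between unstimulated groups Il27 was 0.11, 0.037 and 0.27 and Il10rb 0.033, 0.030 and 0.26 with DESeq2, relative log expression factors and library size alone. Il12a after R848 was -0.059 and -0.049 with the first 2. Leaving out single libraries, the WT responses ran from -1.01 to 1.37 for Il27, -0.16 to 0.043 for Osm and -0.20 to 0.24 for Il6ra. The Padi4 KO responses ran from -0.59 to 0.71 for Il27 and -0.11 to 0.32 for Il6ra, and the differences of response from -1.24 to 1.17 for Il27, -0.41 to 0.017 for Il10rb and -0.21 to 0.37 for Il6ra. Unstimulated genotype differences ran from -0.43 to 0.47 for Il27 and -0.19 to 0.15 for Il10rb, and those after R848 from -0.43 to 0.24 for Il12a and -1.13 to 1.30 for Il27.

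Same-numbered libraries did not deviate together (r between -0.02 and 0.02 over 6912 genes). With duplicates this close to counting error a shared origin might not show, so whether the numbers pair the libraries could not be decided. The replicate block changed no call of the set and turned the unstimulated Il27 difference to 0.021. At these depths Il6 and Il23a could not be compared.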
